A study of Gallus gallus with 6 samples.

Results

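The collagen genes of chicken skin were followed in 6 RNA-seq libraries. Members were all genes whose NCBI chicken symbol reads COL, a number, A and a number, with nothing after it and no filter on their level, and 41 of the 18315 genes in the files met this. COL4A3BP, whose symbol starts in the same way but carries a suffix, encodes a ceramide transfer protein and was left out. The skin came from the cloaca of 6 Ma-Huang broiler chickens of one pure line, aged 120 days and kept under the same feeding, as pieces about 8 mm wide with the subcutaneous fat scraped off. Low yellowness birds (s_light6575, s_light6971 and s_light8275) were set against high yellowness birds (s_deep6402, s_deep6403 and s_deep7858), 1 library per bird, named by wing number, and the birds had been chosen for their low or high cloacal yellowness. No treatment is described for either group, and no genotype is given for the 6 birds. The flock held males and females, while the labels give no sex for the 6 birds.

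Collagens are proteins in which 3 chains wind into a triple helix, and the genes encode single chains. Fibrillar collagens (types I, III and V in skin) form the rope-like fibrils of the dermis, and FACIT collagens sit on the surface of such fibrils. Type IV forms the sheet of basement membranes, type VI forms beaded filaments around cells, type VII makes the fibrils that anchor the epidermis, and the transmembrane type XVII holds basal keratinocytes to the basement membrane. In skin the fibrillar collagens are made chiefly by dermal fibroblasts, and types VII and XVII chiefly by keratinocytes.

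Expression is given as FPKM, read fragments scaled by the length of the gene's exons and by the size of the library, so that levels of genes of different length can be set side by side. Values per bird are always in the order s_light6575, s_light6971, s_light8275 and s_deep6402, s_deep6403, s_deep7858. Totals over all genes ran between 471488 and 487585 FPKM in s_light and between 472540 and 488777 FPKM in s_deep. The paper reports near equal numbers of valid reads for s_light and s_deep, while read depth per library is not given here. No pair of libraries held identical values. The 29 genes that RefSeq places on the W chromosome, which female birds carry, with a mean of at least 1 FPKM, averaged between 3.38 and 3.62 on the log2(FPKM + 0.1) scale in the s_light libraries and 3.59 in s_deep7858. In s_deep6402 and s_deep6403 that average was -1.05 and -1.36, so that sex, as these genes show it, cannot be told apart from yellowness in those libraries. The skin markers KRT5 and KRT14, keratins of basal keratinocytes, were above 600 FPKM in every library.

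Collagen transcripts made up a small part of each library. Together the 41 genes summed to 4907, 7358 and 5007 FPKM in s_light and to 4916, 4726 and 6807 FPKM in s_deep. This was between 1.01% and 1.51% of all FPKM in s_light and between 0.967% and 1.44% in s_deep. One library of each group, s_light6971 and s_deep7858, stood above the other 4, and the groups overlapped. The mean was 5757 ± 1387 FPKM in s_light and 5483 ± 1151 FPKM in s_deep (SD, n = 3 each), a ratio of 1.05 that lay within the spread of both groups. The same 2 libraries had the highest summed FPKM of 10 fibroblast markers, 3120 FPKM in s_light6971 and 3273 FPKM in s_deep7858, against between 2216 and 2380 FPKM in the others. VIM was the largest part of that sum, at 1559 FPKM in s_light6971 and 1856 FPKM in s_deep7858. VIM, DCN, TWIST2, MFAP5, PDGFRA, FBLN2 and FAP were highest in s_light6971 or s_deep7858. LUM and DPT were highest in s_deep6403 and FBLN1 in s_deep6402. The part of fibroblast RNA in the collagen sums was not tested, and in pieces of whole skin fewer cells of a type and less RNA per cell cannot be told apart.

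Levels ran over several orders of magnitude. Averaged over all birds, 8 of the 41 members reached 100 FPKM, 12 lay between 10 and 100 FPKM, 12 between 1 and 10 FPKM and 9 under 1 FPKM. The first 5 by mean level were COL3A1, COL6A2, COL6A1, COL1A1 and COL1A2, which are chains of types III, VI and I. They held between 74.7% and 81.6% of the collagen FPKM in s_light libraries and between 74.1% and 78.8% in s_deep libraries. Their order was not firm, since COL3A1 was above COL6A2 in 3 of 6 libraries and the ranges of neighbours in the order overlapped. COL6A2 was above COL6A1, and COL1A1 above COL1A2, in 6 of 6 libraries. The ranges of neighbours parted at 2 places only, between COL1A2 and COL6A3 and between COL21A1 and COL14A1.

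**Figure D1:**
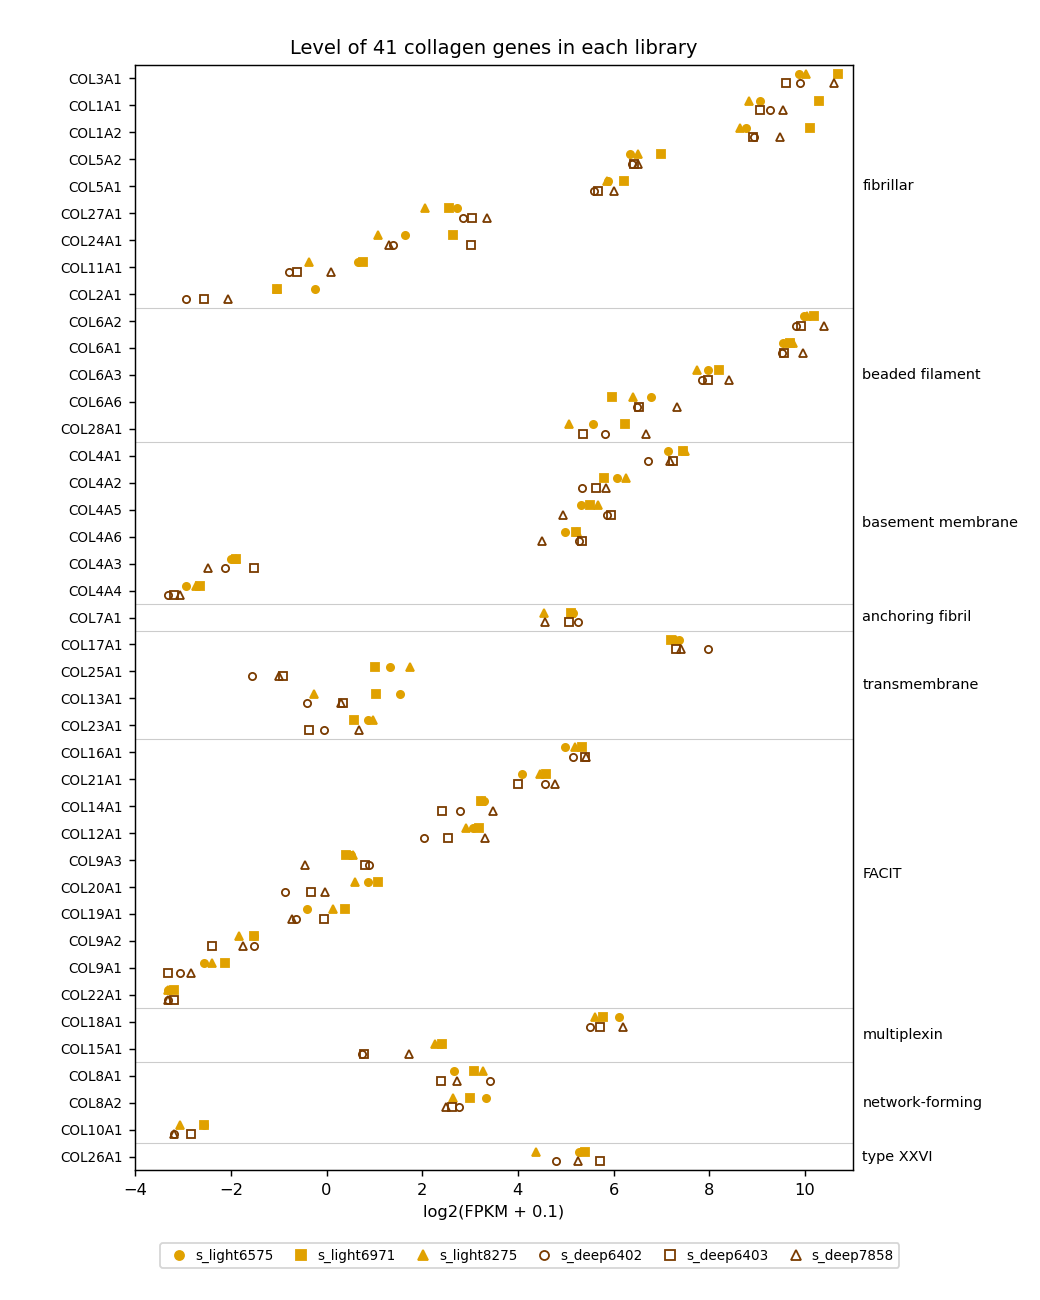
Level of each of the 41 collagen genes on a log2(FPKM + 0.1) axis, 1 row per gene, grouped by structural class, with s_light libraries as filled symbols above and s_deep libraries as open symbols below. COL3A1, COL6A2, COL6A1, COL1A1 and COL1A2 lie farthest to the right, and in most rows the filled and open symbols intermingle.

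Between the groups, the collagens of the bulk of the dermis did not differ beyond the spread of the birds, while several collagens of low level were higher in s_light at an unadjusted p under 0.05, none of them past the FDR threshold. COL25A1, a transmembrane collagen, was 7.05 times higher in s_light by the ratio of group means, COL2A1 6.38 times, COL20A1 2.53 times and COL15A1 2.36 times. None of the 37 members tested passed an FDR of 0.05 over all 15900 genes tested together with a log2 fold change of 1 or more in either direction (limma on log2(FPKM + 0.1), Benjamini-Hochberg adjustment), a threshold that 0.044% of all genes passed. An unadjusted p under 0.05 was found for 6 members, 5 of them higher and 1 lower in s_light. That is 16.2% of the members, against 6.45% of all genes tested, of which 3.49% were higher and 2.96% lower. With the W-linked average as a covariate, 7 of 37 members and 957 of 15900 genes had an unadjusted p under 0.05 (limma). COL25A1, COL15A1 and COL27A1 stayed among the members, and COL2A1, COL20A1 and COL4A2 left. COL4A5, COL4A6, COL6A6 and COL9A3 came in. The W-linked average was low only in s_deep6402 and s_deep6403. Here and below, fits with this covariate thus set the s_light birds largely against s_deep7858, and their p-values carry that limit. The groups did not overlap for 5 members (13.5%), 4 higher and 1 lower, against 10.8% of all genes (5.36% higher and 5.48% lower), a share near the background. The log2 fold change was above 0 for 25 of the 37 members and below 0 for 12, against 46.2% and 53.8% of all genes, and its median was 0.11 for the members and -0.02 for all genes. The other 4 members, COL9A1, COL10A1, COL4A4 and COL22A1, were below the mean of 0.1 FPKM needed for testing. Fold changes on this scale understate the change of genes with low FPKM.

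**Figure D2:**
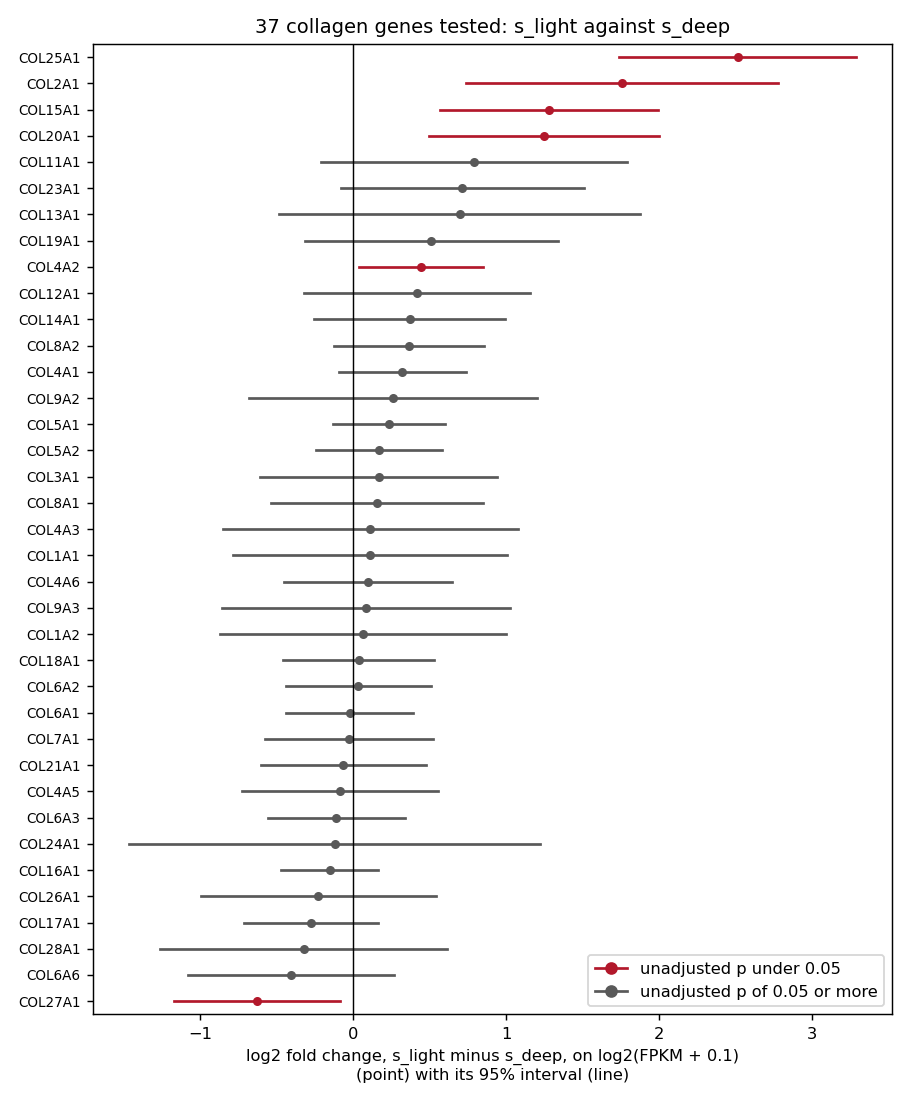
Log2 fold change of the 37 collagen genes tested, s_light minus s_deep on log2(FPKM + 0.1), as points with 95% intervals from limma, ordered from highest to lowest. COL25A1, COL2A1, COL15A1, COL20A1, COL4A2 and COL27A1 have intervals that leave out 0, and all others cross it.

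COL25A1 (Gene ID 429900) encodes a collagen that spans the cell membrane and, in mice, is needed for motor axons to innervate muscle. It was read at 2.39, 1.91 and 3.24 FPKM in s_light and at 0.24, 0.43 and 0.4 FPKM in s_deep. The lowest s_light bird was more than 4 times above the highest s_deep bird. Its log2 fold change was 2.51 (SE 0.33, limma, unadjusted p = 0.000115, adjusted p = 0.0818). No other member had an adjusted p as low, and over 16 alternative settings its log2 fold change lay between 1.36, with a pseudocount of 1, and 2.79. Where each group kept more than 1 bird, its adjusted p lay between 0.0728 and 0.419 and its unadjusted p between 0.000084 and 0.00243 (limma). In the 4 libraries with high W-linked reads, without s_deep6402 and s_deep6403, the log2 fold change was 2.35. That fit sets the s_light birds against s_deep7858 alone, so no p is given for it. With the W-linked average as a covariate the log2 fold change was 2.36 (unadjusted p = 0.00243, adjusted p = 0.403, limma). That average was low only in s_deep6402 and s_deep6403, so both checks rest largely on s_deep7858.

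COL15A1 (Gene ID 420803) encodes type XV collagen of the multiplexin class, which lies beside basement membranes of vessels, muscle and nerve. It was read at 5.12, 5.22 and 4.74 FPKM in s_light, against 1.56, 1.61 and 3.22 FPKM in s_deep. The s_light birds were close together, and s_deep7858 lay between them and the other s_deep birds. The log2 fold change was 1.28 (SE 0.30, limma, unadjusted p = 0.00379, adjusted p = 0.384). Without s_deep7858 it was 1.60 with an adjusted p of 0.0482 (limma), and COL15A1 was then the only member past the FDR threshold. That fit sets s_light birds with high W-linked reads against s_deep6402 and s_deep6403, so sex cannot be told apart from yellowness in it. Over the alternatives that kept more than 1 bird in each group, the adjusted p lay between 0.0482 and 0.830. Without s_deep6402 and s_deep6403 the log2 fold change was 0.63. With the W-linked covariate it was 0.64 (limma, unadjusted p = 0.0475, adjusted p = 0.807), in a fit that rests largely on s_deep7858.

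COL20A1 (Gene ID 419243), a FACIT collagen first described in chick embryo, was read at 1.72, 2 and 1.41 FPKM in s_light and at 0.45, 0.7 and 0.88 FPKM in s_deep. Its log2 fold change was 1.25 (SE 0.32, limma, unadjusted p = 0.00561, adjusted p = 0.458). Here too s_deep7858 was the s_deep bird nearest to s_light, and without s_deep6402 and s_deep6403 the log2 fold change was 0.87. With a pseudocount of 1 it was 0.70. With the W-linked covariate it was 0.91 (limma, unadjusted p = 0.0770). COL2A1 (Gene ID 395069), the main fibrillar collagen of cartilage, was read at 0.75, 0.39 and 0.39 FPKM in s_light and at 0.03, 0.07 and 0.14 FPKM in s_deep. The groups were apart at a level that is low in all birds. On the log2 scale the change was 1.76 (SE 0.43, limma, unadjusted p = 0.00465, adjusted p = 0.425), and it depended on the pseudocount, being 0.48 with a pseudocount of 1 and 2.66 with one of 0.01. It was 1.29 without s_deep6402 and s_deep6403, and 1.30 (limma, unadjusted p = 0.0673) with the W-linked covariate. Of 5 cartilage markers tested, 4 had a log2 fold change above 0, with a median of 0.29, and 0 had an unadjusted p under 0.05. Their largest value was 0.67 for SOX9, a regulator of cartilage formation, read at 4.32, 3.08 and 1.94 FPKM in s_light and at 2.15, 1.26 and 2.25 FPKM in s_deep. ACAN, the cartilage proteoglycan aggrecan, was read at 0.92, 0.63 and 0.18 FPKM in s_light and at 0.3, 0.21 and 0.82 FPKM in s_deep. The groups overlapped for both, and the part of cartilage in the COL2A1 difference was not tested.

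COL4A2 (Gene ID 418752), a chain of the type IV network of basement membranes, was read at 66.98, 55.97 and 76.98 FPKM in s_light and at 40.56, 49.34 and 57.59 FPKM in s_deep. The groups overlapped, since s_deep7858 was above s_light6971. Its log2 fold change of 0.44 (SE 0.17, limma, unadjusted p = 0.0372, adjusted p = 0.742) became 0.20 without s_deep6402 and s_deep6403. With the W-linked covariate the log2 fold change of COL4A2 was also 0.20 (limma, unadjusted p = 0.388). COL27A1 (Gene ID 417231), a fibrillar collagen known from cartilage, was the member that was lower in every s_light bird, at 6.56, 5.78 and 4.07 FPKM, against 7.07, 8.16 and 10.13 FPKM in s_deep. The log2 fold change was -0.63 (SE 0.23, limma, unadjusted p = 0.0291, adjusted p = 0.705), and the gap between the nearest birds of the groups, s_light6575 and s_deep6402, was small. Without s_deep6402 and s_deep6403 the log2 fold change was -0.90. With the W-linked covariate it was -0.89 (limma, unadjusted p = 0.0280, adjusted p = 0.746), in a fit that rests largely on s_deep7858. The unadjusted p (limma) was 0.0907 without s_light8275, 0.0937 without s_deep7858 and 0.0625 without s_deep6403.

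**Figure D3:**
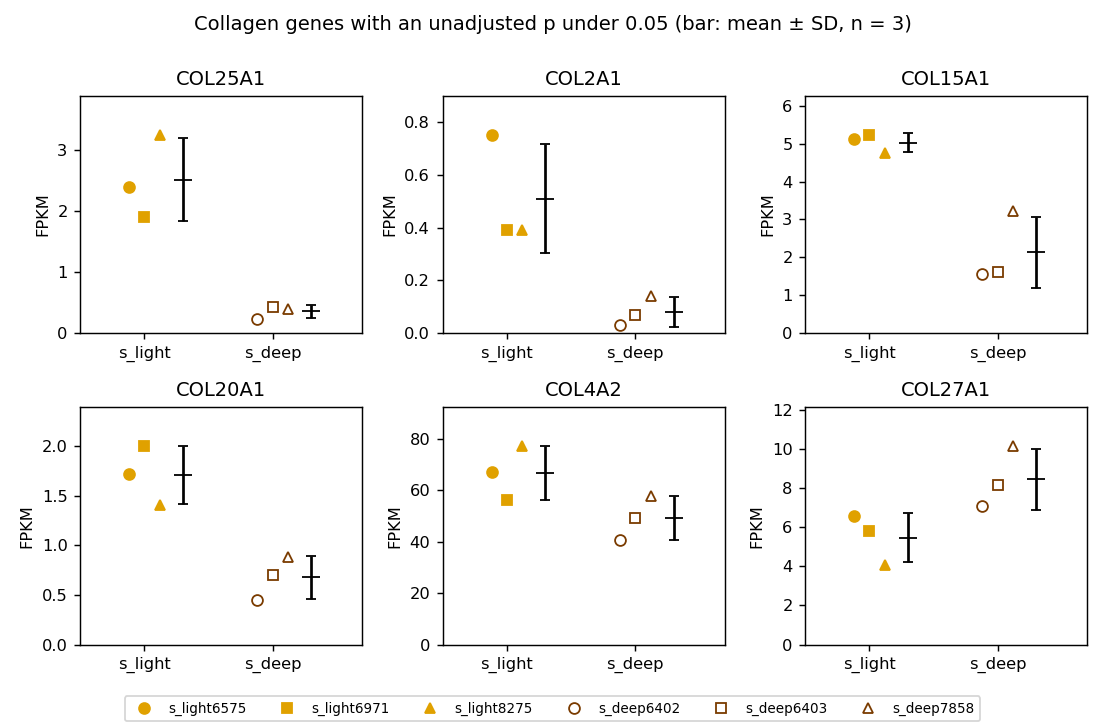
FPKM per library of the 6 collagen genes with an unadjusted p under 0.05, s_light on the left and s_deep on the right of each panel, with the mean and SD (n = 3) as a bar beside the points. COL25A1 is at 1.91 FPKM or more in s_light and at 0.43 FPKM or less in s_deep, and s_deep7858 is the s_deep bird nearest to s_light for COL2A1, COL15A1, COL20A1 and COL4A2.

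Marker genes of other cell types were compared in the same way, against 3.49% of all genes higher and 2.96% lower at an unadjusted p under 0.05 (limma). The marker lists were chosen with earlier results of these data known, so their counts are descriptive only. Of 9 smooth muscle markers tested, 7 had an unadjusted p under 0.05 (limma), all higher in s_light. The others were ACTA2, the most abundant of the list, with a log2 fold change of -0.32, and LMOD1, with 0.09, both with overlapping groups. The summed level of all 9 was between 3328 and 6609 FPKM in s_light and between 1482 and 2902 FPKM in s_deep. Of 6 Schwann cell markers, 5 were higher at that threshold, with sums between 42.0 and 74.8 FPKM in s_light and between 22.0 and 27.7 FPKM in s_deep. Of 6 adipocyte markers 3 were higher, while ADIPOQ had a log2 fold change of -0.35, with sums between 2284 and 2360 FPKM in s_light and between 1557 and 1864 FPKM in s_deep. Of 8 endothelial markers 2 were lower, with sums between 456 and 562 FPKM in s_light and between 525 and 711 FPKM in s_deep. None of the 10 fibroblast or 7 basal keratinocyte markers had an unadjusted p under 0.05. No marker tested was at 0 in any library, and no smooth muscle, Schwann cell, adipocyte or endothelial marker passed an FDR of 0.05. The part of these cell types in the collagen differences was not tested.

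Among the major fibrillar collagens the birds of one group differed more than the groups did. COL1A1, the first chain of type I collagen, was read at 534, 1259 and 454 FPKM in s_light and at 618, 533 and 744 FPKM in s_deep. COL1A2, its partner chain, was read at 433, 1094 and 399 FPKM in s_light and at 486, 479 and 710 FPKM in s_deep. In both, s_light6971 was far above every other bird, and the other s_light birds were the lowest of the 6 or close to it. The 95% interval of the log2 fold change reached between -0.79 and 1.001 for COL1A1 and between -0.87 and 0.999 for COL1A2, so that a change of up to about 1 log2 unit either way could not be told from none. Without s_light6971 the log2 fold changes were -0.35 and -0.40.

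COL3A1, which forms fibrils together with type I in soft skin, was read at 939, 1662 and 1045 FPKM in s_light and at 957, 772 and 1560 FPKM in s_deep. It was high in both s_light6971 and s_deep7858, with a 95% interval between -0.61 and 0.94. COL5A1 and COL5A2 encode type V collagen, which sets the start and width of type I fibrils. COL5A1 was read at 59.12, 74.21 and 58.1 FPKM in s_light and at 48.15, 50.64 and 64.11 FPKM in s_deep. COL5A2 was read at 80.72, 127.11 and 90.63 FPKM in s_light and at 83.25, 85.9 and 91.38 FPKM in s_deep. Both were highest in s_light6971, with overlapping groups and log2 fold changes of 0.23 (95% interval between -0.13 and 0.60) and 0.17 (between -0.24 and 0.58). The remaining fibrillar members, COL24A1 and COL11A1, had means of 4.02 and 0.96 FPKM, and their groups overlapped.

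No chain of type VI had an unadjusted p under 0.05 between the groups in the fit with all birds and no covariate (limma). COL6A1 was read at 749, 823 and 858 FPKM in s_light and at 735, 755 and 1002 FPKM in s_deep. COL6A2 was read at 1010, 1169 and 1060 FPKM in s_light and at 904, 961 and 1347 FPKM in s_deep. COL6A3, the long chain of the same trimer, was read at 250.0, 294 and 215 FPKM in s_light and at 232, 252 and 341 FPKM in s_deep. All these chains were highest in s_deep7858, and the 95% intervals of s_light against s_deep ran between -0.44 and 0.39 for COL6A1, between -0.44 and 0.51 for COL6A2 and between -0.56 and 0.34 for COL6A3. Without s_deep6402 and s_deep6403 the log2 fold changes were -0.31, -0.32 and -0.44 in that order. COL6A6, an alternative to COL6A3, was read at 109, 62.05 and 84.17 FPKM in s_light and at 89.7, 92.34 and 161 FPKM in s_deep. Its lowest bird was s_light6971, the bird in which COL1A1 and COL1A2 were highest, and its highest was again s_deep7858. The log2 fold change of COL6A6 was -0.41, and -0.96 without s_deep6402 and s_deep6403. With the W-linked covariate it was also -0.96 (limma, unadjusted p = 0.0142, adjusted p = 0.648), in a fit that rests largely on s_deep7858. COL28A1, which resembles the type VI chains, was read at 47.65, 74.95 and 33.25 FPKM in s_light and at 56.13, 40.74 and 102 FPKM in s_deep, a 3.08-fold range among the birds with overlapping groups.

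Of the type IV chains, COL4A1 was read at 141, 174 and 181 FPKM in s_light and at 105, 151 and 145 FPKM in s_deep. It pairs with COL4A2 in most basement membranes and had a log2 fold change of 0.32 (95% interval between -0.10 and 0.74), with s_light6575 inside the range of s_deep. COL4A5 was read at 39.56, 45.48 and 50.85 FPKM in s_light and at 58.24, 61.68 and 30.59 FPKM in s_deep. COL4A6 was read at 31.39, 36.77 and 37.41 FPKM in s_light and at 38.78, 40.62 and 22.48 FPKM in s_deep. These genes encode chains that assemble with each other in the basement membrane under the epidermis, and both were lowest in s_deep7858 and highest in s_deep6403. Their log2 fold changes were -0.09 for COL4A5 and 0.09 for COL4A6. Without s_deep6402 and s_deep6403 they were 0.56 and 0.64, so that COL4A5 turned direction, and with the W-linked covariate 0.55 and 0.63. Neither gene had an adjusted p under 0.05 with all birds, without or with that covariate (limma). With the covariate the unadjusted p was 0.0195 for COL4A5 (adjusted p = 0.697, limma) and 0.00628 for COL4A6 (adjusted p = 0.546, limma). Without it the unadjusted p (limma) was 0.754 and 0.695 in that order. The W-linked average was low only in s_deep6402 and s_deep6403, so the fit with the covariate rests largely on s_deep7858. COL4A3, at a mean of 0.16 FPKM, and COL4A4, at 0.03, 0.06 and 0.05 FPKM in s_light and 0, 0.01 and 0.02 FPKM in s_deep, are best known from kidney and were near the bottom of the order.

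COL17A1, the hemidesmosome collagen of basal keratinocytes, was read at 164, 147 and 158 FPKM in s_light and at 251, 157 and 171 FPKM in s_deep. The s_light birds were within a narrow range, and s_deep6402 stood above the other birds. Its log2 fold change was -0.27 (95% interval between -0.71 and 0.16). The basal keratinocyte markers did not move together. KRT5, ITGB4 and LAMB3 were also highest in s_deep6402, KRT5 at 1369 FPKM. KRT5 was between 792 and 1133 FPKM in s_light and at 837 and 769 FPKM in the other s_deep birds. KRT14, TP63, ITGA6 and DST were highest in other libraries. KRT14 was at 630 FPKM in s_deep6402, against 903 and 1050 FPKM in the other s_deep birds and between 616 and 1057 FPKM in s_light. The part of basal keratinocyte RNA in COL17A1 was not tested. COL7A1, the anchoring fibril collagen, was read at 35.29, 34.51 and 23.18 FPKM in s_light and at 38.06, 33.63 and 23.55 FPKM in s_deep, so that a low bird stood in each group. The transmembrane members COL13A1 and COL23A1 had means of 1.403 and 1.33 FPKM, with log2 fold changes of 0.69 and 0.71 whose 95% intervals held 0.

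In the FACIT class, COL16A1 was the highest member, at 31.34, 40.45 and 36.7 FPKM in s_light and at 35.67, 42.42 and 42.53 FPKM in s_deep, and varied little, by 1.36 times between the lowest and the highest bird. COL21A1 was read at 16.95, 23.87 and 22.09 FPKM in s_light and at 23.52, 15.88 and 27.4 FPKM in s_deep. COL12A1 and COL14A1 bind to type I fibrils and tie them into the matrix. COL12A1 was read at 8.21, 9.02 and 7.48 FPKM in s_light and at 4.03, 5.75 and 9.87 FPKM in s_deep. COL14A1 was read at 9.69, 9.29 and 9.4 FPKM in s_light and at 6.8, 5.21 and 11 FPKM in s_deep. For both, s_deep6402 and s_deep6403 were below every s_light bird and s_deep7858 above. Both had an unadjusted p under 0.05 (limma) only when s_deep7858 was left out, where sex cannot be told apart from yellowness. Of the others, COL9A3, at a log2 fold change of 0.08 and of 0.95 without s_deep6402 and s_deep6403, and COL19A1 had means of 1.32 and 0.80 FPKM and COL9A2 one of 0.20 FPKM, each with overlapping groups. COL9A1, which builds type IX collagen of cartilage with the other type IX chains, was at 0.07, 0.13 and 0.09 FPKM in s_light and at 0.02, 0 and 0.04 FPKM in s_deep, and COL22A1 reached no more than 0.01 FPKM.

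COL18A1, the second multiplexin and the source of endostatin, was read at 68.85, 55.11 and 48.52 FPKM in s_light and at 45.04, 52.09 and 73.02 FPKM in s_deep, a log2 fold change of 0.03 (95% interval between -0.46 and 0.53). COL26A1 was read at 38.88, 42.18 and 20.81 FPKM in s_light and at 27.72, 52.31 and 37.96 FPKM in s_deep. The network-forming COL8A1 and COL8A2, known from vessels and cornea, had means of 7.74 and 7.04 FPKM with overlapping groups. COL10A1, the collagen of hypertrophic cartilage, reached no more than 0.07 FPKM.

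Across the 20 members that averaged 10 FPKM or more, the highest value was most often in 2 birds of opposite groups. It was in s_deep7858 for 8 members and in s_light6971 for 5, and in s_light6575 for none. Of all genes tested, 17.5% were highest in s_deep7858, 17.8% in s_light6971 and 17.1% in s_light6575. The birds differed in which collagens were high. Fibrillar collagens made up 57.5% of the collagen FPKM in s_light6971, against 41.9% and 41.04% in the other s_light birds and between 41.004% and 46.8% in s_deep. The beaded filament class of type VI and COL28A1 made up 32.9% in s_light6971, against between 41.005% and 44.9% in the other 5 birds. The lowest value over all 37 tested members was in s_deep6402 for 13 of them (against 15.4% of all genes tested), and the highest in s_deep7858 for 11 (against 17.5% of all genes).

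**Figure D4:**
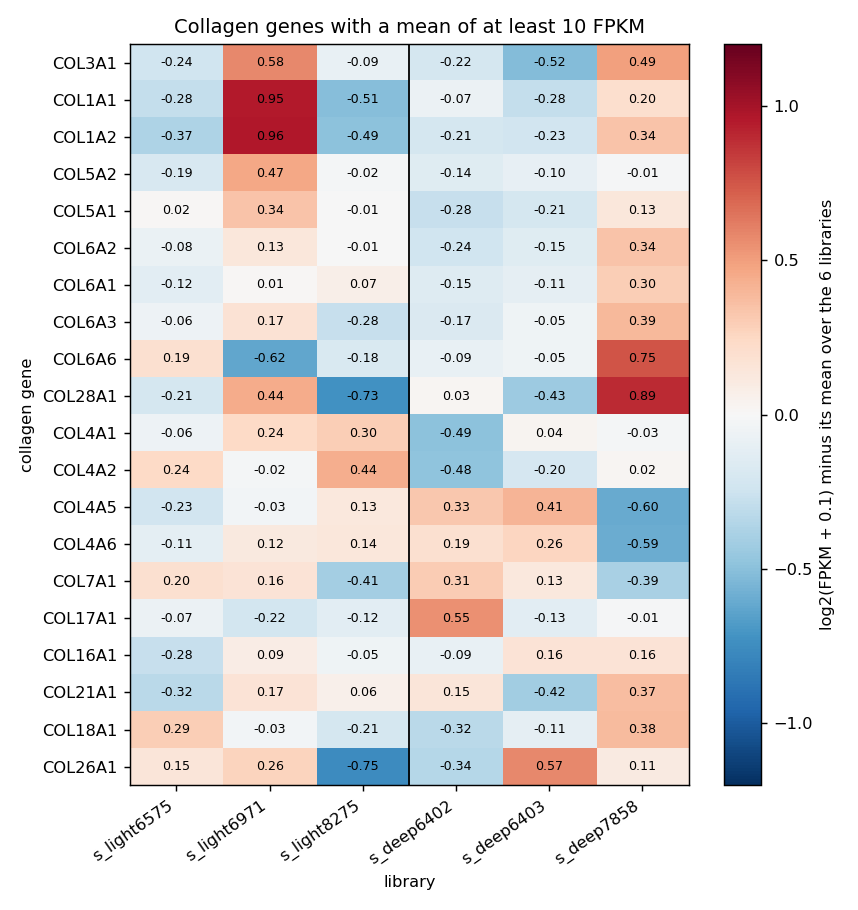
The 20 collagen genes that averaged 10 FPKM or more, each cell giving log2(FPKM + 0.1) in a library minus the gene's mean over the 6 libraries, with s_light libraries left of the line and s_deep libraries right of it. COL1A1 and COL1A2 stand 0.95 and 0.96 above their means in s_light6971, and the type VI chains are highest in s_deep7858.

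Ratios between chains were compared to see whether partners moved together. COL1A1 was 1.17 ± 0.052 times COL1A2 in s_light and 1.14 ± 0.114 times in s_deep (SD, n = 3 each), although each gene alone ranged 2.77-fold and 2.74-fold among the birds. COL6A1 was 0.752 ± 0.054 times COL6A2 in s_light and 0.781 ± 0.035 times in s_deep. COL4A1 was 2.52 ± 0.523 times COL4A2 in s_light and 2.72 ± 0.299 times in s_deep. The ratio that ranged most was COL5A1 to COL1A1, at 0.111, 0.059 and 0.128 in s_light and 0.078, 0.095 and 0.086 in s_deep, lowest in s_light6971. The other ratios fixed were COL3A1 to COL1A1, COL5A1 to COL5A2, COL6A3 to COL6A1 and COL12A1 to COL14A1. None of the 8 ratios differed between the groups beyond the spread of the birds (exact two-sided permutation tests, p between 0.4 and 0.9, adjusted p = 0.9 for all; 3 birds against 3 cannot go below 0.1), and the groups overlapped for all of them. In the RefSeq gene order, COL6A1 and COL6A2, COL4A5 and COL4A6, COL4A1 and COL4A2, and COL3A1 and COL5A2 are pairs of adjacent protein-coding genes. COL9A1 and COL19A1, and COL4A3 and COL4A4, are adjacent too, but COL9A1 and COL4A4 were at 0 in a library, so no ratio is given. The ratio within the pair ranged 1.15-fold among the birds for COL6A1 and COL6A2, 1.23-fold for COL4A5 and COL4A6, 1.48-fold for COL4A1 and COL4A2 and 1.90-fold for COL3A1 and COL5A2. For COL3A1 and COL5A2 this was more than the 1.57-fold range of COL5A2 alone, while COL3A1 alone ranged 2.15-fold. In the other pairs the ratio ranged less than either gene alone.

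**Figure D5:**
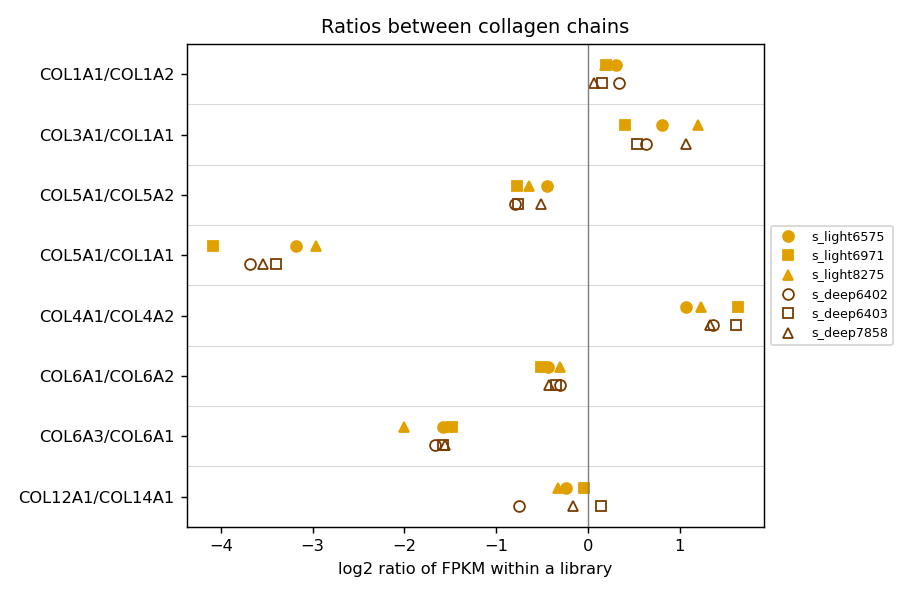
Log2 ratio of FPKM between 2 collagen chains within each library, for the 8 ratios compared, with s_light libraries as filled symbols above and s_deep libraries as open symbols below in each row. COL1A1/COL1A2 and COL6A1/COL6A2 stay within narrow bands, and COL5A1/COL1A1 spreads most, with s_light6971 at the left end of its row.

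Genes that fold, cut, link and bind collagen were taken from lists chosen with earlier results of these data known, so their shares are descriptive only. Of 17 genes for modification and folding, none had an unadjusted p under 0.05, against 6.45% of all genes, and the median log2 fold change was -0.01. The most abundant were SERPINH1, the collagen chaperone HSP47, at 567, 481 and 363 FPKM in s_light and 321, 351 and 469 FPKM in s_deep, PPIB, a prolyl isomerase, with a mean of 277 FPKM in s_light and 255 FPKM in s_deep, and P4HB, a subunit of prolyl 4-hydroxylase, with 221 FPKM in s_light and 224 FPKM in s_deep.

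Of 12 genes for procollagen cleavage and cross-linking, 3 were higher and 1 was lower in s_light at an unadjusted p under 0.05 (33.3%, against 6.45% of all genes), and none passed an FDR of 0.05. PCOLCE2, which enhances the cutting of procollagen by its C-proteinase, was read at 15.28, 12.19 and 16.94 FPKM in s_light and at 6.67, 5.23 and 7.62 FPKM in s_deep. The groups were well apart, and the log2 fold change was 1.18 (SE 0.20, limma, adjusted p = 0.164). LOXL2, a lysyl oxidase that cross-links collagen and is best known for type IV, was read at 7.68, 7.24 and 6.82 FPKM in s_light and at 3.91, 3.88 and 4.67 FPKM in s_deep, and the log2 fold change was 0.79 (SE 0.16, limma, adjusted p = 0.297). LOX, the lysyl oxidase of fibrillar collagen and elastin, went the other way, at 20.84, 14.65 and 17.16 FPKM in s_light and 23.95, 22.49 and 28.77 FPKM in s_deep, and the log2 fold change was -0.52 (SE 0.17, limma, adjusted p = 0.648). TLL2, a tolloid-like proteinase, was read at 0.36, 0.17 and 0.31 FPKM in s_light and 0.07, 0.11 and 0.1 FPKM in s_deep, apart but low in all birds. TLL2 had an unadjusted p of 0.0469 (limma), and its log2 fold change ran between 0.22 and 1.44 over 15 alternatives. Over those that kept more than 1 bird in each group, its unadjusted p ran between 0.00704 and 0.182 (limma). The unadjusted p of LOX was 0.0166, but 0.0523 without s_light6971 and 0.0551 without s_deep7858. With the W-linked covariate the log2 fold changes were 0.92 for PCOLCE2, 0.62 for LOXL2, -0.73 for LOX and 0.88 for TLL2. Their adjusted p (limma) was 0.601, 0.745, 0.630 and 0.936 in that order, in a fit that rests largely on s_deep7858. SPARC, a collagen-binding matrix protein, was the highest of the list, at 1417, 1512 and 1278 FPKM in s_light and 1131, 870 and 1468 FPKM in s_deep. LOXL1, at 105, 84.29 and 71.29 FPKM in s_light and 71.7, 60.32 and 122 FPKM in s_deep, and LOXL3, at 43.44, 46.89 and 56.61 FPKM in s_light and 44.47, 51.92 and 43.07 FPKM in s_deep, had overlapping groups.

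Of 8 genes for collagen receptors and uptake, ITGA2, the alpha chain of a collagen-binding integrin, was lower in s_light at an unadjusted p of 0.0444 (limma), 12.5% of the list against 6.45% of all genes. It was read at 6.55, 7.29 and 6.46 FPKM in s_light and at 11.28, 12 and 7.09 FPKM in s_deep. In s_deep7858 it overlapped with s_light, and it was above every s_light bird in s_deep6402 and s_deep6403, the libraries with low W-linked reads. ITGB1, its partner, CTSK, a collagen-degrading cathepsin, and DDR1, a receptor tyrosine kinase that binds collagen, were the most abundant and had no unadjusted p under 0.05. CTSK was nonetheless lower in every s_light bird, at 282, 285 and 211 FPKM in s_light and 355, 291 and 294 FPKM in s_deep. ITGB1 averaged 244 FPKM in s_light and 221 FPKM in s_deep, and DDR1 18.2 FPKM in s_light and 16.7 FPKM in s_deep, with overlapping groups. Of the genes on the 3 lists, none passed an FDR of 0.05 over all genes tested.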

How the data were processed

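RNA from cloacal skin of 6 chickens was sequenced, and the authors deposited 1 file per bird with FPKM, to 2 decimals, for each NCBI Gene ID. According to the paper's methods the reads were filtered and aligned with TopHat to Gallus_gallus-5.0; the submitters' processing notes name HISAT2 2.0.4, Bowtie2 2.2.5, RSEM 1.1.12 and DESeq2 1.4.5, and which program made the FPKM is not settled. Scaling to length and library size is thus already in the values, and shared reads may have been split between similar genes. In a check for whole-read steps, 16.9% of 3795 ratios between low values lay within 0.1 of a whole number, where an even spread gives 20%. Ratios of several reads need not be whole numbers, so the check says nothing about depth. The values are not counts, so no counting error is given.

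Gene symbols were looked up by Gene ID in RefSeq (assembly GRCg7b) and found for 83.5% of IDs. Collagen genes among the 3019 IDs without a match, or under other symbols, were not looked for, and gene positions served only to find W-linked genes and adjacent genes. The 15900 genes that averaged 0.1 FPKM or more were compared, s_light minus s_deep, on log2(FPKM + 0.1) with limma 3.58.1 in R 4.3.3, with eBayes allowing an intensity trend, Benjamini-Hochberg adjusted over all of them; the code was tested on simulated data. No covariate was used, and with 1 library per bird the p-values measure the spread between birds. Values per library are given for members with a mean of at least 10 FPKM, an unadjusted p under 0.05 or groups without overlap, and for chains in ratios, and for genes of the folding, cross-linking and receptor lists with an unadjusted p under 0.05; the most abundant 3 of each of those lists are given by library or by group mean. The members and lists were chosen with earlier results of these data known. Of the genes in the lists, those with no symbol match in the files were left out. Alternatives were other pseudocounts, filters and scalings, no trend, a W-linked covariate, and libraries left out. Leaving out s_deep6402 and s_deep6403 left 1 bird in s_deep, so only effect sizes are given for that fit. The fit with the W-linked covariate rests largely on the same bird, s_deep7858.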

Additional observations from a re-analysis of the deposited data

How the results depend on the processing

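Each result had between 6 and 16 alternatives, and of all these values 384 stayed the same, 32 turned direction, 19 moved and 1 became stronger. For fold changes of named genes, the same meant the same direction and side of the FDR threshold. For ratios between chains it meant the same direction, for counts a similar number, and for medians and sums a shift within the spread of the birds. A count could thus stay the same while its members changed. None of the named genes passed the FDR threshold with all birds and no covariate. For them, the same thus asked only for the same direction and for staying short of that threshold, whatever the size. COL2A1 counted as the same with a log2 fold change of 1.76 in the main fit and 0.48 with a pseudocount of 1. The causes were not tested. Over all genes, the number past the FDR threshold (7) was 11 with a pseudocount of 1, 12 with median-of-ratios scaling, 3 with the W-linked average as a covariate, and 69 without s_deep7858. The 69 come from a fit in which sex, as the W-linked genes show it, cannot be told apart from yellowness. Among members, fold changes were scored for the 6 with an unadjusted p under 0.05 (limma), COL4A1, COL17A1, COL1A1, COL1A2, COL3A1 and COL6A1 to COL6A3. Of these, the log2 fold changes that turned direction were small with all birds and no covariate, and had not passed a test. With quantile normalization COL1A2 was at -0.051 and COL6A1 at 0.0033. With the W-linked covariate COL1A1, COL1A2, COL3A1 and COL6A2 were at -0.10, -0.25, -0.38 and -0.31, and without s_deep6402 and s_deep6403 at -0.14, -0.31, -0.41 and -0.32. Some members that were not scored turned direction with the W-linked covariate too. COL4A5 went from -0.09 to 0.55 and COL24A1 from -0.12 to 0.56. COL12A1 went from 0.42 to -0.22 and COL14A1 from 0.37 to -0.22.

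With each bird left out in turn, the genes past the FDR threshold numbered between 0 and 69, the collagen genes past it between 0 and 1, those with an unadjusted p under 0.05 between 4 and 10 and those without overlap between 7 and 15, where fewer birds leave less room for overlap by construction. The 10 came without s_deep7858, where sex cannot be told apart from yellowness, and the 4 without s_deep6403. The median log2 fold change of the members lay between 0.061 and 0.23, that of COL1A1 between -0.35 and 0.39, COL1A2 between -0.40 and 0.33, COL3A1 between -0.082 and 0.45, COL6A1 between -0.11 and 0.12, COL6A2 between -0.079 and 0.21 and COL6A3 between -0.23 and 0.054. The log2 difference in ratio lay between -0.019 and 0.12 for COL1A1/COL1A2, -0.14 and 0.26 for COL3A1/COL1A1, -0.021 and 0.15 for COL5A1/COL5A2, -0.092 and 0.47 for COL5A1/COL1A1, -0.19 and 0.069 for COL6A3/COL6A1, and -0.20 and 0.25 for COL12A1/COL14A1. For COL4A1/COL4A2 it lay between -0.28 and -0.0012, and for COL6A1/COL6A2 between -0.11 and -0.010. Without s_light6971 the exact permutation p was 0.1 for COL4A1/COL4A2 and COL5A1/COL1A1, the lowest that such a test can reach. Without s_deep6402 it was 0.1 for COL1A1/COL1A2. COL25A1 kept an unadjusted p under 0.05 (limma) in every alternative that left more than 1 bird in each group.

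No paired analysis was possible because no wing number occurs in both groups and the replicate numbers only name birds. FPKM without read counts gives no counting error, which matters most for members under 1 FPKM. With 3 birds a group, the 95% intervals for types I and III reached up to about 1 log2 unit from 0.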
